A study of Mus musculus with 6 samples.

Results

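The loss of Atoh7 was examined in mouse retinas that already lacked Bax, at embryonic day 14 (E14). The comparison set 2 libraries labelled Bax null with null Atoh7 (Bax null Atoh7 null) against 2 libraries labelled Bax null with wild-type Atoh7 (Bax null), so that, per the labels, both groups carried the Bax deletion and differed in Atoh7 alone. The Bax counts of one library put its label in doubt, as given below. These were 4 of the 6 libraries of the series and held 46083 of its 67050 labelled cells. The other pair of libraries was Bax het with null Atoh7 (Bax het Atoh7 null), and their values are given beside the comparison where they help to read it. Below, the libraries labelled Bax null are called the controls and those labelled Bax null Atoh7 null the double nulls. All were 10x Genomics 3' v2 libraries of polyA RNA from retinal cells. The labels name neither strain nor animals, so p-values measure the spread between libraries, which may be technical.

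Atoh7 is a basic helix-loop-helix transcription factor that is switched on briefly in progenitors leaving the cell cycle, and most retinal ganglion cells fail to form or to persist without it. Ganglion cells are the first neurons born in the retina, send axons through the optic nerve, and secrete Sonic hedgehog, which acts on the progenitors beneath them. Bax is an effector of programmed cell death in the mitochondrial pathway, and many developing ganglion cells that would otherwise die survive when it is deleted.

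UMIs (unique molecular identifiers, here counted transcripts) were summed per library within each of the 5 cell types that the authors had labelled. The 4 libraries held 5634 ganglion cells, 8584 neurogenic cells, 28194 retinal progenitor cells, 2028 cones and 1643 cells labelled horizontal. Ganglion cells made up 17.3% and 16.9% of the control cells but 7.83% and 9.63% of the double null cells. Levels are TMM-scaled CPM (UMIs of a gene relative to all UMIs of the cell type in the library), in the order replicate 1 and replicate 2. A gene is called when its adjusted p is under 0.05 in edgeR's quasi-likelihood test, and fold changes are Bax null Atoh7 null minus Bax null on the log2 scale, with their standard error (SE). The within-library difference is the log2 level (pseudocount 4 CPM) of a gene in one cell type minus its mean over the other 4 types of the same library, compared between groups with limma. An equal fold change in all types cancels in it only where a gene's levels are alike between types or far above the pseudocount. Hist1h2ap, for example, fell to near 0 in all 5 types and was still called in the difference in 4 of them.

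The libraries stood apart in ways that bear on every result. Totals were 63085055 and 66594431 UMIs in the controls against 33415227 and 22463515 in the double nulls, with median cells of 5660.5 and 6804 against 1940 and 1634 UMIs. Genes of red blood cells summed to 1108 and 927 CPM of all UMIs in the controls against 241 and 9.08 in the double nulls. This split coincides with the genotype, so a library batch and the loss of Atoh7 cannot be told apart in any change shared by all cell types. Nor can they in a change seen in one type, where the other types hardly count the gene. The Bax het Atoh7 null libraries lie on the same side of the split as the double nulls, so they do not separate genotype from batch either. The double nulls also shared 2596 cell barcodes (17.6% of the cells of replicate 1 and 22.0% of replicate 2), where the other 14 pairs of libraries shared between 126 and 223. In 2386 of these pairs the replicate 1 profile held under 0.5 times the UMIs of its partner (median 0.379), and 92.5% of the pairs had the same cell type label. Counts are therefore also given without the replicate 1 cells that have such a barcode.

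Not one UMI of Atoh7 (ENSMUSG00000036816, on the plus strand of chromosome 10 in GRCm38, from 63099651 to 63101279) was counted in either double null in any cell type. In neurogenic cells, where it is normally active, it stood at 28.9 and 27.4 CPM in the controls, at least 49.8-fold higher than the level of 3 UMIs in the shallower double null. Bax (ENSMUSG00000003873, chromosome 7, 45461697 to 45466898) was read in all libraries. In progenitor cells it stood at 15.4 and 14 CPM in the controls, 33.4 and 4.73 in the double nulls and 114 and 80.6 in Bax het Atoh7 null, so the library labelled double null replicate 1 lay above both controls, and its Bax level goes against its label. Which part of Bax the allele lacks is not given in the sources used here. Within that library, the cells paired by barcode had 8.69 CPM of Bax and the cells without a shared barcode 51.5 CPM. Without this library edgeR called 4898 genes in ganglion cells, 5155 in neurogenic cells, 6911 in progenitor cells, 2338 in cones and 2344 in the cells labelled horizontal, and 4513, 4603, 6238, 2011 and 2025 of the genes called with it were called in the same direction.

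The markers named here were each highest in the type of their label in every library of both groups. Some other markers were lower in the double nulls, such as Sncg in ganglion cells, Hes1 in progenitor cells and Gngt2 in cones. Ganglion cells held Isl1 at 919 and 935 CPM in the controls and 400.3 and 473 in the double nulls, neurogenic cells held Neurog2 at 345 and 287 against 605 and 797, and progenitor cells held Sfrp2 at 2070.4 and 1986 against 2306 and 2562. Cones held Otx2 at 1385 and 1421 CPM against 1042 and 1422. The cells labelled horizontal had Lhx1, a horizontal cell gene, at only 22.8 and 20.5 CPM against 27.7 and 25.9, and the amacrine gene Ptf1a at 569 and 614 against 289.6 and 266, so this class held cells with amacrine markers as well.

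A large share of genes was called in every cell type. edgeR called 5580 of 10586 genes in ganglion cells (52.7%), 5518 of 11670 in neurogenic cells (47.3%), 7222 of 13396 in progenitor cells (53.9%), 2649 of 9421 in cones (28.1%) and 2617 of 8960 in the cells labelled horizontal (29.2%). Of the 8445 genes tested in all 5 types, 1504 (17.8%) were called the same way in every type, 597 higher (7.07%) and 907 lower (10.7%). Others were called in one type only, 500 in ganglion cells, 226 in neurogenic cells, 586 in progenitor cells, 82 in cones and 63 in the cells labelled horizontal, which does not show that the types differ. The fold changes of these shared genes were alike from type to type, with a median span of 0.382 on the log2 scale, and 998 of the 1504 differed from the other types in no type. The within-library difference was called for 1802 genes in ganglion cells (17%), 1287 in neurogenic cells (11%), 1013 in progenitor cells (7.56%), 396 in cones (4.2%) and 2.24% of the genes tested in the cells labelled horizontal. Of the genes edgeR called, 26.1% in ganglion cells but 5.04% in the cells labelled horizontal also differed from the other types. The cells labelled horizontal were fewer (1643 against 5634 ganglion cells) and held fewer UMIs, so the power to call a difference was not equal. Without control replicate 1 or 2, 943 or 858 genes were shared by all types, 1634 or 1583 were called in cones, and 1196 or 961 differed in ganglion cells and 398 or 318 in progenitor cells. Without control replicate 2, 3663 were called in neurogenic cells and 1599 in the cells labelled horizontal, and 582 and 131 differed there. Without the barcode-sharing cells 1439 were shared by all types.

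A gene was taken as particular to a type when edgeR called it there, its within-library difference was called at a size of 1 or more in the same direction, and its fold change in each other type was under 0.5 times as large in that direction. Where a gene was not tested in another type, the group difference of its log2 levels with the pseudocount stood in for that fold change. This value is small wherever a gene is hardly counted, so the last condition is then met by low counts alone. A particular gene is therefore not shown to be unchanged in types where it was not tested. Ganglion cells had 244 such genes (88 higher, 156 lower; 2.3% of those tested), neurogenic cells 20 (0.171%), progenitor cells 7 (0.0523%), cones 40 (0.425%) and the cells labelled horizontal 36 (0.402%). Without the barcode-sharing cells, 235 of the 244 ganglion cell genes remained particular, and without the library labelled double null replicate 1, 189 remained. The 7 progenitor genes became 3 without that library and 15 without replicate 2 of the same group, and the 20 neurogenic genes became 44 without control replicate 1. The size of the pseudocount moved the ganglion cell count between 124 (10 CPM) and 326 (1 CPM).

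**Figure D1:**
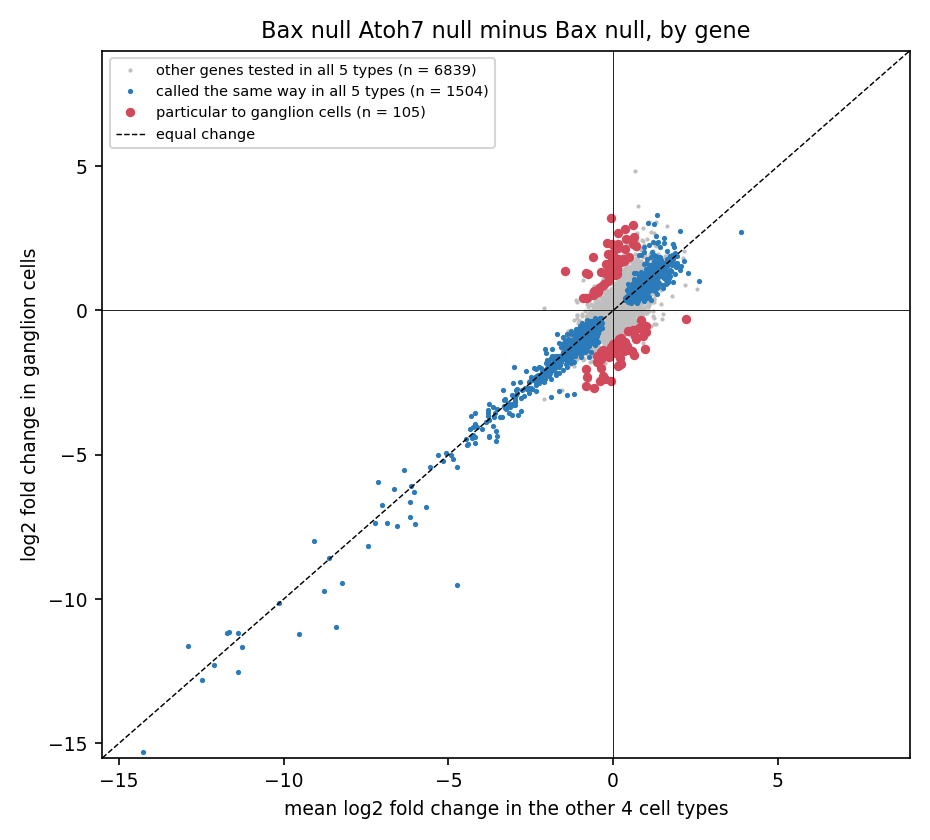
Each point is a gene tested in all 5 cell types, with its log2 fold change (double nulls minus controls) in ganglion cells on the vertical axis and the mean of the other 4 types on the horizontal axis. The 1504 genes called the same way in every type (blue) follow the dashed line of equal change, while the particular genes of ganglion cells that were tested everywhere (red, 105 of 244) lie off that line.

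The changes shared by all types were steepest among lower genes. In every type 32 genes were lower by at least 5 on the log2 scale (32-fold), and none was higher by that much. Of the 32, 6 were mitochondrially encoded, 2 were haemoglobin genes, and 10 had symbols of pseudogenes or predicted genes. Pgam1, which encodes a glycolytic enzyme, stood in progenitor cells at 623 and 610.05 CPM in the controls and at 1.37 and 1.5 in the double nulls, and its fold change lay between -7.40 and -9.63 over the 5 types. In the Bax het Atoh7 null libraries, which are on the same side of the depth split, it stood at 1.7 and 1.4 CPM. Of 13 mitochondrially encoded genes, 11 fell in all 5 types (medians from -4.10 to -4.45, against medians of all genes from 0.0047 to 0.039), and 65 of 84 ribosomal protein genes fell in all 5 (medians from -1.02 to -1.24). In neurogenic cells the fall of the ribosomal genes was slightly steeper than elsewhere, with 55 of 81 called lower in the within-library difference at a median of -0.13.

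Regulators of retinal development were among the shared changes too. Hes1, a Notch effector that keeps progenitors undifferentiated, stood in progenitor cells at 2057 and 2204 CPM in the controls and 219 and 220.1 in the double nulls, a fold change of -3.28 (SE 0.12, adjusted p 7.90e-08), and it fell in all types, by between 1.97 and 3.88. Pax6, a master regulator of eye development, stood at 983 and 1024 CPM against 504 and 443 in the same cells (-1.08, SE 0.10, adjusted p 4.34e-05) and fell in all types. Sox4, a transcription factor of newborn neurons, rose in all types and most in ganglion cells, where it stood at 934 and 949.5 CPM against 3258 and 3704 (1.89, SE 0.14, adjusted p 2.71e-07). Its rise there also exceeded that in the other types, with a within-library difference of 0.58 (SE 0.04, adjusted p 4.48e-11).

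The 8 genes with the highest shared rise were Zic2, Gsr, Mars, 2610037D02Rik, Slc2a1, Tmx1, Wsb1 and Fam171a2, with mean fold changes from 1.84 to 2.17. Slc2a1, the main glucose transporter of these cells, stood in progenitor cells at 125 and 122 CPM in the controls and 417 and 449.5 in the double nulls (1.81, SE 0.10, adjusted p 1.95e-06). Zic2, a transcription factor known for guiding the axons of uncrossed ganglion cells, stood in ganglion cells at 6.0 and 5.27 CPM against 31.4 and 45.3 (2.76, SE 0.20, adjusted p 2.97e-07). It rose in all 5 types and its within-library difference was called in none. Mdm2, the ubiquitin ligase that holds p53 in check, rose in all types by between 1.12 and 1.72. The 8 with the lowest shared change, with fitted means from -11.35 to -14.48 that depend on the prior count where a library holds no UMI, were mt-Nd3, mt-Co2, mt-Nd4l, mt-Atp8, Rps12-ps3, mt-Atp6, Gm10116 and Hist1h2ap.

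In ganglion cells, the genes of ganglion cell identity and maturation fell. Of 34 tested genes on a list of 40 ganglion cell genes, 25 fell and 2 rose (Robo2 and Kif5c), with a median of -1.07 against 0.021 over all genes, where 26.5% of genes were called lower. The within-library difference was called for 28 of them in the lower direction and for 1 in the higher. Summed over the list without TMM scaling, ganglion cells held 22013 and 22928 CPM in the controls and 18169 and 21041 in the double nulls. These sums are not on the scale of the fold changes. TMM scaling lowers the control totals from 10475320 and 10906998 UMIs to 8171158 and 8347575. It raises the double null totals from 2512506 and 2275756 to 2897907 and 2734702, so the fall is larger on that scale. The counts were 24 lower and 2 higher with doublets left out, and 23 lower and 2 higher without the library labelled double null replicate 1.

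The Iroquois transcription factors, known from ganglion cell subsets, fell together. Irx3 stood at 121 and 133 CPM in the controls and 5.87 and 8.04 in the double nulls, with a fold change of -4.19 (SE 0.17, adjusted p 1.47e-09) and a within-library difference of -3.34 (SE 0.17, adjusted p 5.13e-14). Irx2 stood at 81.4 and 82.4 CPM against 7.59 and 6.22 (-3.56, SE 0.15, adjusted p 2.77e-09), and Irx5 at 120.1 and 144 against 13.5 and 20.5 (-2.97, SE 0.18, adjusted p 6.53e-08). In the Bax het Atoh7 null libraries there were 1.44 and 2.96 CPM of Irx3, so Irx3 was below 10 CPM in all 4 libraries without Atoh7 and above 100 CPM in both with it. These 4 libraries are also those on the low side of the depth split, so Atoh7 and a library batch cannot be told apart here.

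Lmo2, a transcriptional cofactor, stood at 40.6 and 38.8 CPM in the controls and 0 and 0.731 in the double nulls, and Tac1, the precursor of substance P, at 33 and 41 against 2.07 and 0.731. Their within-library differences were -3.31 (SE 0.22, adjusted p 5.78e-12) for Lmo2 and -2.96 (SE 0.22, adjusted p 6.29e-11) for Tac1. Sncg, encoding gamma-synuclein, an abundant ganglion cell protein, stood at 2747 and 3085 CPM against 192 and 188 (-3.94, SE 0.15, adjusted p 7.36e-10). It fell in all 5 types, with 8.93 and 6.56 CPM against 2.16 and 1.33 in progenitor cells, which are not known to express it, and the part of free RNA in these levels was not tested.

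Other genes of ganglion cells fell as well. Slc17a6, the vesicular glutamate transporter of ganglion cells, stood at 18.8 and 18.4 CPM in the controls and 2.07 and 4.02 in the double nulls (-2.62, SE 0.29, adjusted p 1.17e-05). Ebf1, a factor of postmitotic ganglion cells, stood at 2329 and 2440.5 against 489 and 435 (-2.37, SE 0.12, adjusted p 1.17e-08), and Rbpms, an RNA-binding protein used as a ganglion cell marker, at 159 and 162 against 33.5 and 38 (-2.17, SE 0.11, adjusted p 7.45e-09). Gap43, a growth cone protein, stood at 3166 and 3558 against 1228 and 1639 (-1.23, SE 0.17, adjusted p 5.47e-05). In these 4 genes the libraries of the groups did not overlap. In a joint edgeR fit of all types the within-library differences of Irx2, Tac1 and Slc17a6 lost their call, with adjusted p of 0.988, 1 and 0.988, and that of Sncg did with a pseudocount of 1 CPM (adjusted p 0.0701).

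Among the transcription factors of the ganglion cell programme, Isl1 and Pou4f2 fell and Pou4f1 did not pass the test. Isl1, a LIM homeodomain factor, stood at 919 and 935 CPM in the controls and 400.3 and 473 in the double nulls (-1.09, SE 0.12, adjusted p 7.25e-06). Pou4f2, a POU factor downstream of Atoh7, stood at 106 and 103 against 42.8 and 45 (-1.25, SE 0.17, adjusted p 6.52e-05). Its relative Pou4f1 stood at 144 and 164 against 129 and 158 and did not pass the test (fold change -0.10, SE 0.11, adjusted p 0.449), nor did the neurofilament gene Nefm, at 1498 and 1529.8 against 1433 and 1546 (adjusted p 0.884). The within-library differences of Isl1 and Pou4f2 were not called in ganglion cells (adjusted p 0.44 and 0.382), and both genes were also lower in neurogenic cells.

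**Figure D2:**
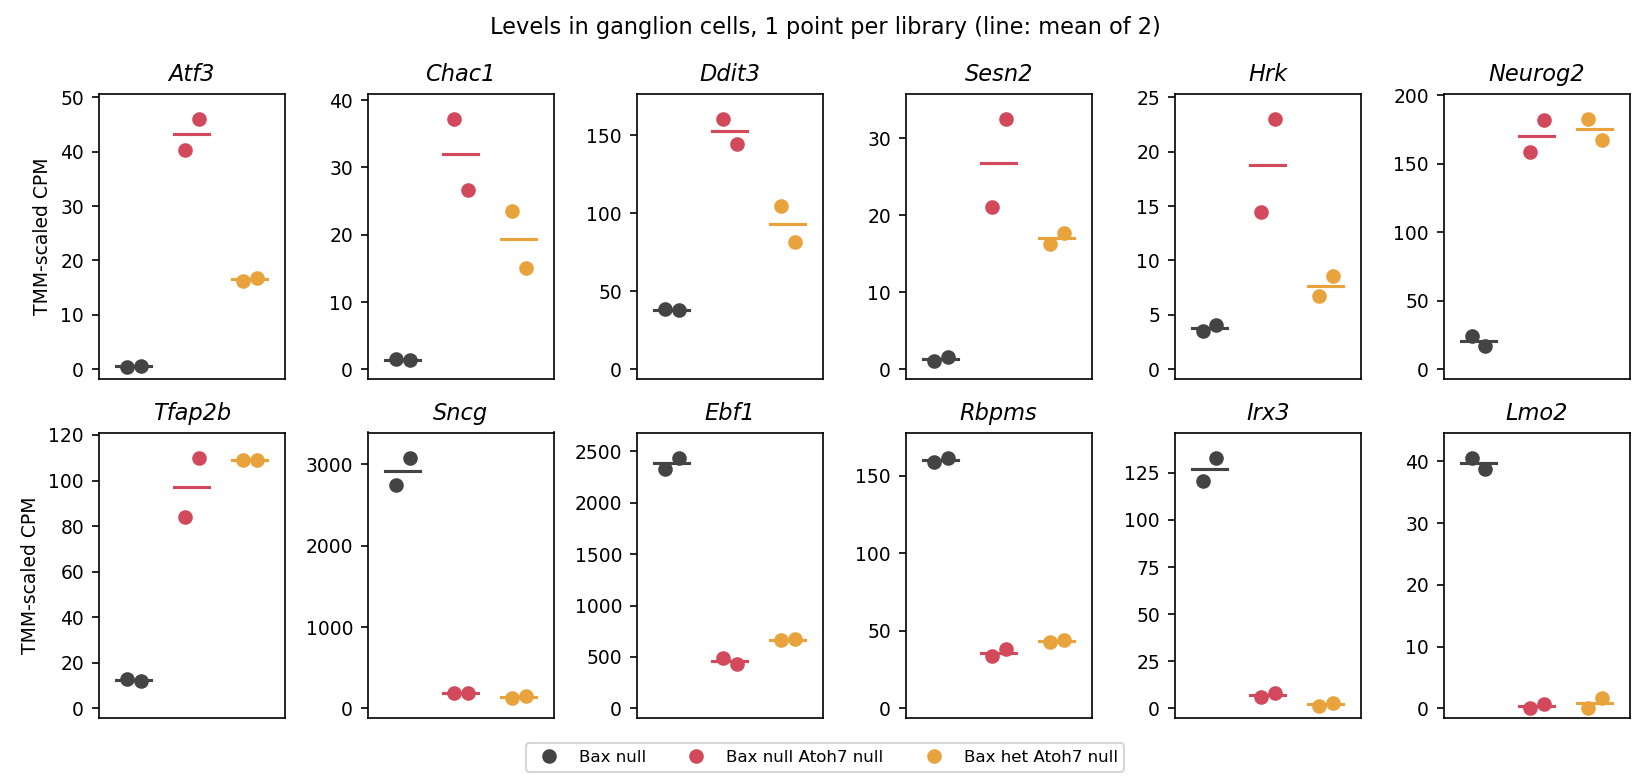
Levels of 12 genes in ganglion cells, as TMM-scaled CPM on linear axes, with 1 point per library and a line at the mean of each group of 2. In the double nulls Atf3, Chac1, Ddit3, Sesn2, Hrk, Neurog2 and Tfap2b lie above both controls, and Sncg, Ebf1, Rbpms, Irx3 and Lmo2 below both; the Bax het Atoh7 null libraries are shown beside them.

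A group of stress and cell death genes rose in ganglion cells. Of 30 tested genes on a list of 33, 20 rose and 1 fell (Ecel1), with a median of 1.33, where 26.2% of all genes were called higher. The within-library difference was called higher for 22 and lower for 1. In the other types the medians lay between -0.07 and 0.20, with 6 higher and 4 lower of 24 in neurogenic cells (23.5% and 23.8% of all genes), 9 and 5 of 29 in progenitor cells (26.8% and 27.1%), 4 and 4 of 27 in cones (12.5% and 15.6%), and 5 and 1 of 19 in the cells labelled horizontal (13.5% and 15.7%). The ganglion cell count was 20 higher and 1 lower without the barcode-sharing cells, 19 and 1 with doublets left out, and 19 and 1 without the library labelled double null replicate 1.

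Genes of the integrated stress response were among those that rose. In this response the transcription factor ATF4 turns on genes of amino acid supply and of stress-induced death. Atf3, an immediate stress factor, stood at 0.49 and 0.599 CPM in the controls and 40.4 and 46.1 in the double nulls, with a fold change of 6.24 (SE 0.24, adjusted p 1.07e-09) and a within-library difference of 3.54 (SE 0.20, adjusted p 1.50e-13). Chac1, which degrades glutathione, stood at 1.47 and 1.32 against 37.3 and 26.7 (4.50, SE 0.29, adjusted p 1.06e-07), and Ddit3, encoding the factor CHOP, at 38.5 and 38 against 161 and 144 (2.0, SE 0.12, adjusted p 4.06e-08). Atf3 fell in progenitor cells (-0.70, adjusted p 0.00569) and did not pass the test in cones (-0.62, adjusted p 0.261). Chac1 rose in progenitor cells too, from 2.13 and 1.72 to 4.62 and 4.67 CPM (1.27, SE 0.18, adjusted p 0.000366).

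Trib3, a pseudokinase that restrains ATF4, stood at 1.35 and 1.2 CPM against 20 and 23.4 (4.06, SE 0.26, adjusted p 8.69e-08). Sesn2, a sestrin that damps growth signalling, stood at 1.1 and 1.56 against 21.1 and 32.5 (4.30, SE 0.30, adjusted p 1.84e-07). The amino acid transporter Slc7a3 stood at 0 and 0.12 against 22.4 and 25.2, and the cystine transporter Slc7a11 at 0.49 and 0.599 against 8.97 and 13.5. All 4 stood under 2 CPM in the ganglion cells of both controls. Slc7a3 also stood higher in progenitor cells, at 0.406 and 0.237 CPM in the controls and 2.59 and 4.73 in the double nulls. In cones its groups overlapped. The gene Atf4 itself, whose product is controlled mainly at translation, did not pass the test in ganglion cells (fold change 0.18, adjusted p 0.139).

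Genes of amino acid synthesis outside the list moved with them and are named after their values were seen. Phgdh, the first enzyme of serine synthesis, stood at 4.28 and 2.88 CPM in the controls and 34.5 and 31.8 in the double nulls (3.21, SE 0.20, adjusted p 7.77e-08), and Mthfd2, a mitochondrial folate enzyme, at 28.8 and 29.8 against 133 and 125 (2.14, SE 0.10, adjusted p 6.12e-09). Cebpb, a partner of ATF4 and CHOP, stood at 0.367 and 0.599 against 9.32 and 19.7 (4.82, SE 0.53, adjusted p 9.07e-06). Asparagine synthetase, Asns, on the list, stood at 22.9 and 22.3 against 116 and 121 (2.39, SE 0.10, adjusted p 2.76e-09).

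Some death genes that act upstream of Bax rose too. Hrk, a BH3-only killer protein known from neurons, stood at 3.55 and 4.07 CPM in the controls and 14.5 and 23 in the double nulls (2.28, SE 0.26, adjusted p 1.38e-05), and Bcl2l11, encoding BIM, at 6.36 and 8.98 against 16.6 and 24.5 (1.41, SE 0.24, adjusted p 3.55e-04). Jun, which acts upstream of both in axon injury, stood at 89.6 and 80.3 against 250.2 and 264 (1.60, SE 0.09, adjusted p 4.58e-08), and the p53 target Cdkn1a at 9.18 and 8.15 against 30.7 and 34 (1.90, SE 0.17, adjusted p 1.40e-06). Bbc3, encoding PUMA, did not pass the test (0.15, adjusted p 0.192). The Bax het Atoh7 null libraries lay between the groups for several of these stress and death genes. They held 16.3 and 16.8 CPM of Atf3, 105 and 81.9 of Ddit3 and 6.71 and 8.55 of Hrk. Of Chac1 they held 23.5 and 15.1 CPM, and of Slc7a3 14.9 and 7.89. In the joint edgeR fit the within-library differences of Chac1, Slc7a3 and Hrk lost their call (adjusted p 1, 1 and 0.946).

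The letters TGATGNAA, the core shared by response elements of ATF4 and its C/EBP partners, were searched for on both strands in RefSeq promoters (GRCm38.p6, from 250 bases before to 50 after the gene start). They stood in 8 of the 66 promoters found for the 88 genes that were particular to ganglion cells and higher (12.1%), in 2 of the 111 found for the 156 lower ones (1.80%), in 2.43% of the 8100 found for all genes tested in ganglion cells and in 4.51% of all 27025 promoters. The genes were chosen by their values, so these shares are a description, and a match is not a binding site. The windows below show the match in capitals with 30 bases on either side, for 5 of the genes above or of the lists, read 5′ to 3′ along the gene's strand.
Atf3 (chr1:191183406-191183473, minus strand): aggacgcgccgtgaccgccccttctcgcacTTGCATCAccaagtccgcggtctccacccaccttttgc
Chac1 (chr2:119351019-119351086, plus strand): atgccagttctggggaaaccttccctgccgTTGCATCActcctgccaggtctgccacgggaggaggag
Hrk (chr5:118169620-118169687, plus strand): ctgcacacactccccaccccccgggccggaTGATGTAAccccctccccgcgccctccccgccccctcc
Slc7a11 (chr3:50443623-50443690, minus strand): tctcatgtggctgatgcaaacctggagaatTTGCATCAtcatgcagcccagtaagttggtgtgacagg
Gadd45g (chr13:51846544-51846611, plus strand): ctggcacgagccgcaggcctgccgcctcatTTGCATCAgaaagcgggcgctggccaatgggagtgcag

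Atf3, Chac1, Slc7a11 and Gadd45g carried the same 8 letters, TTGCATCA, which are TGATGCAA read on the other strand, and Hrk carried TGATGTAA on its own strand. Slc7a11 held a second match, 66 bases before its start. For the 156 lower genes, the letters CAGATG, an E-box of the kind read by neuronal basic helix-loop-helix factors, stood in 23.4% of promoters found, against 24.2% for the higher genes, 12.8% for all genes tested in ganglion cells and 19.2% of all 27025 promoters. The promoters of Irx2 and Tac1 are shown with that E-box in capitals.
Irx2 (chr13:72628716-72628781, plus strand): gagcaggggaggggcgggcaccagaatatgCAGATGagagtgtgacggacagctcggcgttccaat
Tac1 (chr6:7554858-7554923, plus strand): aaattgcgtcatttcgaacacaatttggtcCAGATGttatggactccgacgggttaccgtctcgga

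Ganglion cells without Atoh7 also held more transcripts of genes that act earlier in neurogenesis. Of 24 tested genes on a neurogenic list of 25, 19 rose and 1 fell (Onecut1), with a median of 1.26, where 26.2% of all genes were called higher and 26.5% lower. Neurog2, the proneural factor expressed with Atoh7, stood at 24.1 and 17.3 CPM in the controls and 159 and 182 in the double nulls (3.04, SE 0.14, adjusted p 4.49e-09). Neurod1 stood at 96.3 and 69.4 against 349 and 387 (2.15, SE 0.15, adjusted p 1.61e-07), and Insm1, a factor of cell cycle exit, at 55.4 and 49.1 against 322 and 197 (2.31, SE 0.19, adjusted p 7.85e-07). Tfap2b, a factor of amacrine and horizontal cells, stood at 12.8 and 12.1 against 84.2 and 110.1 (2.96, SE 0.14, adjusted p 6.82e-09), while the amacrine gene Ptf1a stood at 2.81 and 2.52 against 1.38 and 0.

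Markers of other types moved with these genes in the ganglion cell label. Of 19 tested progenitor genes 11 rose and 3 fell, Sox2 from 34 and 22.5 to 120.4 and 93.6 CPM, and of 25 tested cell cycle genes 19 rose and none fell at a median of 0.89, where edgeR called 26.2% of all genes higher and 26.5% lower. The cell cycle genes also rose in cones (12 of 22) and in the cells labelled horizontal (10 of 23), where none fell, though in cones the count was 7 without the library labelled double null replicate 1 and 6 without control replicate 2, and their median was 0.0023 in progenitor cells with 8 higher and 7 lower of 27. Of all genes, 12.5% were called higher and 15.6% lower in cones, and 13.5% and 15.7% in the cells labelled horizontal. In progenitor cells these shares were 26.8% and 27.1%, near those of the cell cycle list there. Otx2, a photoreceptor factor, stood in ganglion cells at 18.1 and 14.1 against 41.8 and 38.4 (1.31, SE 0.15, adjusted p 1.63e-05). With doublets left out, the neurogenic count in ganglion cells was 18 higher and 1 lower of 23, and the cell cycle count 15 higher and 1 lower of 22. The part of mixed droplets or free RNA in these rises was not tested.

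**Figure D3:**
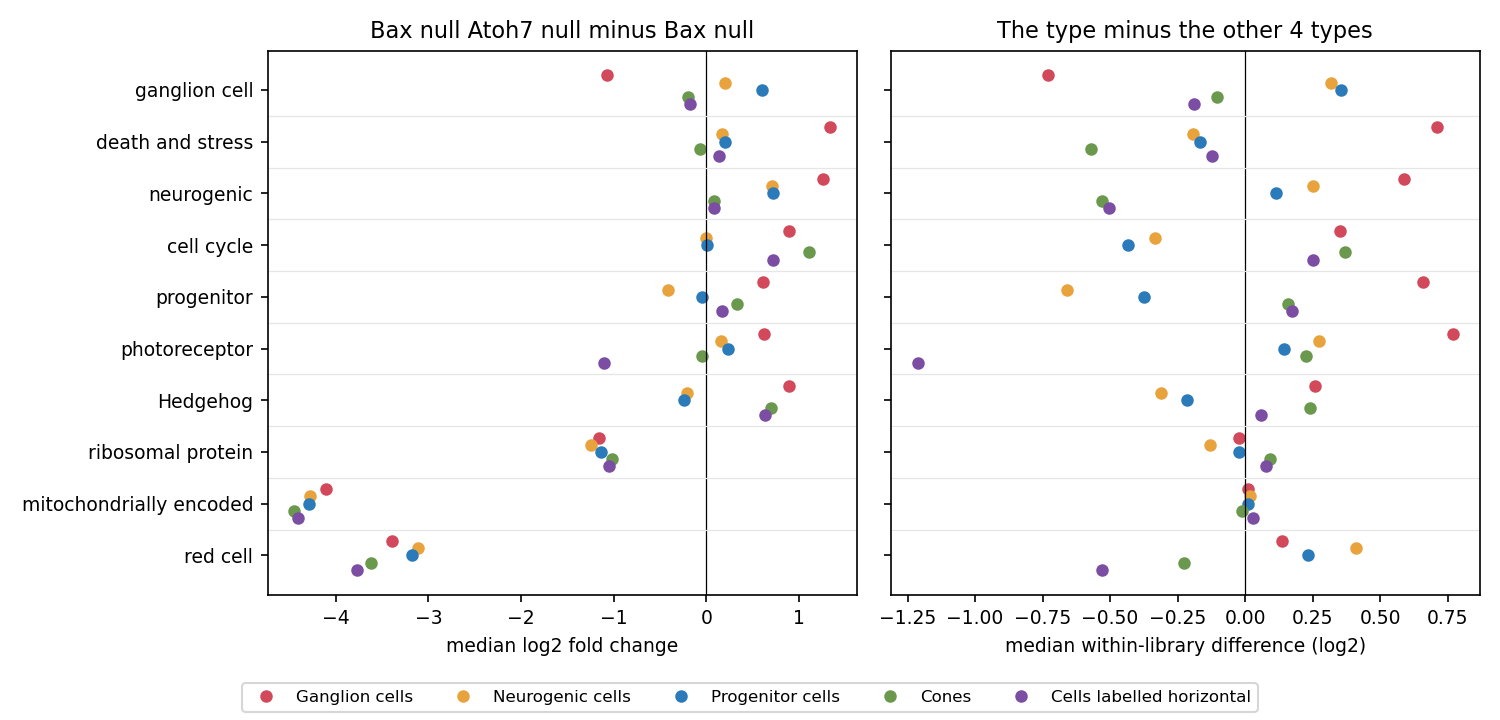
Median log2 fold change (left) and median within-library difference (right) of the tested members of 10 gene lists, with 1 point per cell type. The ribosomal, mitochondrial and red cell lists lie below 0 in all 5 types on the left (mitochondrial medians from -4.10 to -4.45) and the mitochondrial list lies near 0 on the right, whereas the ganglion cell and the death and stress lists set ganglion cells (red) apart in both panels.

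In neurogenic cells, the cells in which Atoh7 is normally expressed, proneural genes rose. Of 25 genes of the neurogenic list 21 rose and none fell, with a median of 0.71 against 0.0047 over all genes, where 23.5% were called higher and 23.8% lower. Neurog2 stood at 345 and 287 CPM in the controls and 605 and 797 in the double nulls (1.15, SE 0.14, adjusted p 5.82e-05), and the Notch ligand gene Dll3 at 54.9 and 46.1 against 112 and 152 (1.39, SE 0.15, adjusted p 1.67e-05). Olig2, a factor of neurogenic progenitors, stood at 18.1 and 14.6 against 53.4 and 53.5 (1.71, SE 0.12, adjusted p 7.08e-07).

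The ganglion cell genes split in neurogenic cells, with 13 higher and 10 lower of 30 (8 and 9 without control replicate 2). Of all genes, 23.5% were called higher and 23.8% lower in these cells. Isl1 stood at 48 and 47.1 CPM in the controls and 7.6 and 8.48 in the double nulls, with a fold change of -2.57 (SE 0.14, adjusted p 6.44e-08) and a within-library difference of -1.46 (SE 0.15, adjusted p 3.68e-08). Pou4f2 stood at 7.37 and 8.93 against 1.02 and 2.64 (-2.23, SE 0.34, adjusted p 2.31e-04). Isl1 was particular to no other type and was among the 17 lower particular genes of neurogenic cells. Some general neuronal genes went the other way. Gap43 stood at 41.9 and 46 against 81.8 and 101 (1.05, SE 0.14, adjusted p 9.13e-05), Stmn2, a microtubule regulator, at 221 and 209 against 494 and 555 (1.28, SE 0.11, adjusted p 3.79e-06), and Stmn3 at 31.3 and 30.9 against 62.3 and 77.9 (1.17, SE 0.14, adjusted p 4.77e-05). Gap43 and Stmn3 therefore rose in neurogenic cells and fell in ganglion cells.

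In neurogenic cells, 23.5% of all genes were called higher and 23.8% lower. Of 19 tested progenitor genes 11 fell and 2 rose in these cells, and 14 had a lower within-library difference. Without control replicate 2 only 5 fell. Sfrp2, a Wnt modulator of progenitors, stood at 872 and 1029 CPM against 689 and 569.6 (-0.59, SE 0.13, adjusted p 0.00273), and Fgf15 at 641 and 744 against 555 and 461 (-0.45, SE 0.12, adjusted p 0.011). The calls of Sfrp2 and Fgf15 in edgeR were lost without control replicate 2 (adjusted p 0.0573 and 0.150). The chromatin protein gene Hmga2 stood at 35.8 and 41.8 against 16.8 and 10.7 (within-library difference -1.42, SE 0.14, adjusted p 1.11e-08), Cp, encoding ceruloplasmin, at 56.5 and 71.6 against 40.4 and 31.7 (-1.56, SE 0.14, adjusted p 9.57e-08), and Ehd4, an endocytic protein gene, rose from 14.5 and 15.8 to 44 and 47.5 (1.41, SE 0.13, adjusted p 4.44e-09). The difference of Gap43 lost its call when progenitor cells alone served as the reference (adjusted p 0.0971).

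In progenitor cells, some genes of Hedgehog signalling fell and others rose. In this pathway the ligand Sonic hedgehog binds the receptor Ptch1, which frees Smo, and the Gli factors then turn on targets such as Gli1, Ptch1 and Hhip. Shh itself was counted in ganglion cells with 21 and 32 UMIs in the controls and 0 and 2 in the double nulls, levels of 2.57 and 3.83 CPM (exact Poisson 95% intervals 1.59 to 3.93 and 2.62 to 5.41) against 0 and 0.731 CPM (upper limits 1.27 and 2.64). It was below the filter on low counts and has no fold change test.

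Gli1 in progenitor cells was counted with 284 and 251 UMIs in the controls and 3 and 2 in the double nulls, or 9.61 and 8.49 CPM against 0.118 and 0.115, a fold change of -6.21 (SE 0.34, adjusted p 1.43e-06). In neurogenic cells it had 38 and 57 UMIs against 0 and 0, at least 8.45-fold lower, so Gli1 was lower in both types. The Bax het Atoh7 null progenitor cells held 2 and 0 UMIs. Ptch1 stood at 15.5 and 16.8 CPM against 10.9 and 11.8 (-0.51, SE 0.11, adjusted p 0.00323), and Gli2 at 19.8 and 20.7 against 12.1 and 8.64 (-0.95, SE 0.14, adjusted p 4.67e-04). These genes differed widely in the size of the fall, from steep in Gli1 to modest in Ptch1.

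Hhip, an inhibitor that binds the ligand and is itself a target, went in opposite directions in 2 types. In progenitor cells it stood at 2.44 and 3.25 CPM against 0.784 and 1.09 (-1.63, SE 0.27, adjusted p 8.65e-04), and in ganglion cells at 0.612 and 0.24 against 10 and 9.14 (4.41, SE 0.42, adjusted p 2.91e-06). Over the pathway list, 6 of 13 tested genes fell in progenitor cells and 4 rose (Smo, Cdon, Mycn and Gas1), where edgeR called 27.1% of all genes lower and 26.8% higher. Gas1, a coreceptor, stood at 38 and 33.9 against 63.9 and 67.4 (0.87, SE 0.09, adjusted p 5.28e-05). The rise of Mycn (0.40, SE 0.10, adjusted p 0.00892) was lost without either control (adjusted p 0.0536 and 0.0657), and without control replicate 1 or 2 only 1 or 2 genes of the list rose. No wild-type library was used here, so no level with both genes intact is given.

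**Figure D4:**
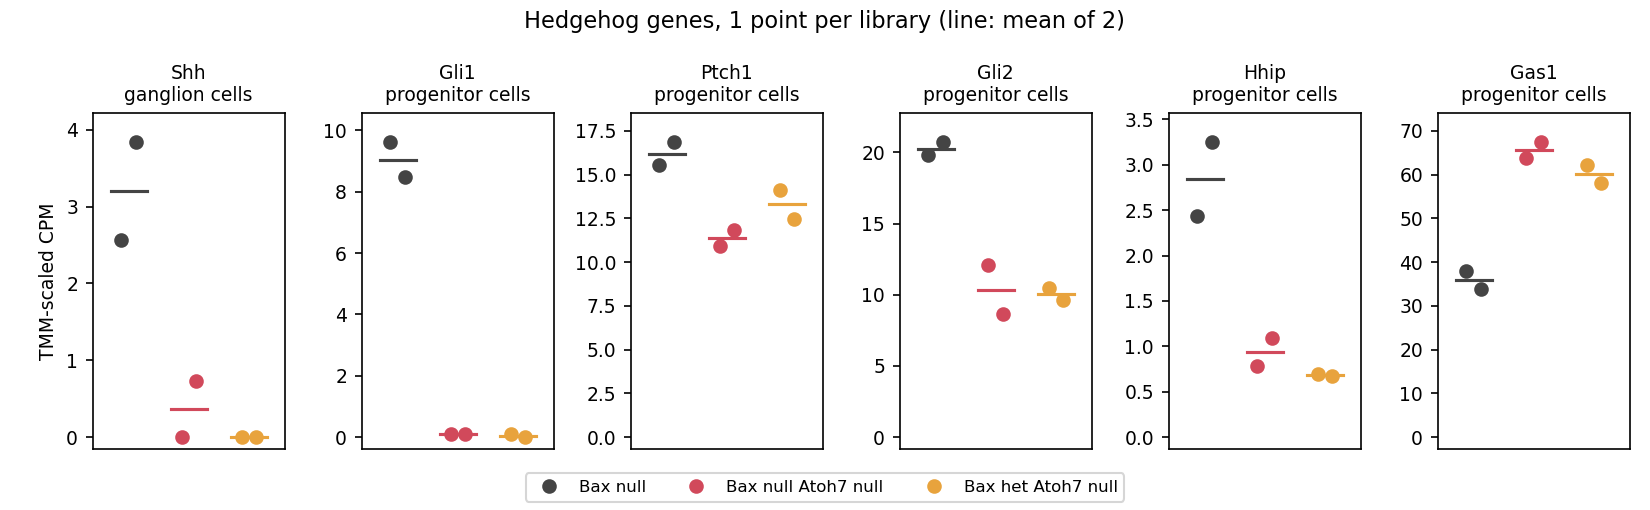
Levels of Shh in ganglion cells and of 5 Hedgehog pathway genes in progenitor cells, as TMM-scaled CPM on linear axes, with 1 point per library and a line at the mean of each group of 2. Gli1 lies above 8 CPM in both controls and under 0.2 CPM in the other 4, the gap of Ptch1 is smaller, and Gas1 lies higher in the 4 libraries without Atoh7.

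Hey1, a relative of Hes1 that also answers to Notch, was the one gene particular to progenitor cells above 20 CPM. It stood at 18.6 and 14.7 CPM in the controls and 34.3 and 37.5 in the double nulls (1.11, SE 0.12, adjusted p 9.84e-05; within-library difference 1.45, SE 0.14, adjusted p 1.38e-05), while in ganglion cells it fell from 59.4 and 45 to 16.2 and 11.7 (-1.89, SE 0.20, adjusted p 8.56e-06). Of all genes in progenitor cells, 26.8% were called higher and 27.1% lower. Of 32 tested ganglion cell genes, 14 rose and 5 fell in these cells at a median of 0.60, for example Stmn2 from 22.5 and 19.3 to 58.9 and 39.1 CPM (1.24, SE 0.17, adjusted p 2.94e-04). Without the library labelled double null replicate 1 these counts were 6 and 5 of 31, and without control replicate 2 they were 8 and 4 of 32. The neurogenic list rose there too, with 18 higher and none lower of 25, and Neurog2 stood at 53.6 and 44.6 against 66.9 and 69.7 (0.48, SE 0.11, adjusted p 0.00659), a call lost without control replicate 2 (adjusted p 0.0819).

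The defining factors of cones did not pass the test. Crx, the cone-rod homeobox factor, stood at 373 and 340.5 CPM in the controls and 332 and 362 in the double nulls (fold change -0.04, adjusted p 0.825), and Thrb, the thyroid hormone receptor of cones, at 281 and 286 against 304 and 356 (0.21, adjusted p 0.242). Otx2 had a fold change of -0.19 (adjusted p 0.394). Leaving out the library labelled double null replicate 1 made Thrb higher (0.33, adjusted p 0.0460), and leaving out replicate 2 made Otx2 lower (-0.43, adjusted p 0.000639). Of 15 tested photoreceptor genes 3 fell and none rose, where 15.6% of all genes were called lower. Without the library labelled double null replicate 1 the counts were 3 lower and 3 higher, and without replicate 2 of that group 6 lower and none higher. Gngt2, the cone transducin gamma subunit, stood at 1799 and 1931 against 835 and 644 (-1.33, SE 0.16, adjusted p 2.64e-06), Prdm1, which favours photoreceptor over bipolar fate, at 551 and 483 against 244 and 237 (-1.10, SE 0.13, adjusted p 1.39e-06), and Neurod4 at 537 and 473 against 349.7 and 361 (-0.51, SE 0.14, adjusted p 0.00961). The last call was lost without control replicate 1 (adjusted p 0.163).

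In cones the death and stress genes were called at shares near those of all genes, with 4 lower and 4 higher of 27 (15.6% and 12.5% of all genes). There were 2 lower and 1 higher of 28 without control replicate 1 and 1 lower and 2 higher of 28 without control replicate 2. Atf4 stood at 434 and 428 CPM in the controls and 249.98 and 236 in the double nulls (-0.82, SE 0.13, adjusted p 8.37e-05). Chac1 stood at 26.5 and 31.4 against 16.2 and 10.4 (-1.06, SE 0.32, adjusted p 0.019; within-library difference -2.03, SE 0.27, adjusted p 1.69e-06), and Ddit3 at 138 and 167 against 99.1 and 108 (-0.56, SE 0.15, adjusted p 0.00757). In the controls, Chac1 and Ddit3 were thus higher in cones than in ganglion cells, and in the double nulls the order was the other way round. The edgeR calls of Chac1 and Ddit3 in cones were lost with DESeq2 (adjusted p 0.123 and 0.0875) and without control replicate 2 (0.128 and 0.131), Ddit3 also with doublets left out (0.0653), and Chac1 also without control replicate 1 (0.0528) and double null replicate 2 (0.0801).

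Gsg1 was counted in cones with 115 and 121 UMIs in the controls and with none in the double nulls, at least 43.8-fold lower, and it was also listed at 0 in both Bax het Atoh7 null libraries. Its levels in the controls were 113 and 136 CPM, and its difference lost the call in the joint edgeR fit. Outside cones no control library held more than 5 UMIs of Gsg1 in any type, so a fall there could not be seen. Whether the loss was confined to cones was not tested. Pcdh17, a protocadherin gene, stood at 235 and 214 against 41.4 and 45.3 (within-library difference -1.88, SE 0.15, adjusted p 5.63e-12). The highest particular genes of cones were Kcnab1, a potassium channel subunit gene, at 28.4 and 37 against 65.4 and 100.1 (1.67, SE 0.19, adjusted p 5.45e-08), Specc1 at 3.92 and 3.36 against 41.4 and 33.1 (1.38, SE 0.26, adjusted p 5.31e-04) and Tbc1d10b at 9.8 and 2.24 against 29.1 and 32.1 (1.35, SE 0.31, adjusted p 0.00612). The difference of Tbc1d10b was lost without control replicate 2 or double null replicate 2 (adjusted p 0.220 and 0.0760) and with thinned counts (0.0855).

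In the cells labelled horizontal, photoreceptor genes fell. Of 10 tested genes of the photoreceptor list 8 fell and none rose, with a median of -1.11, where 15.7% of all genes were called lower. Without either control 5 of the 10 fell. Otx2, the factor at the top of photoreceptor fate, stood at 123 and 137 CPM in the controls and 48.3 and 59 in the double nulls (-1.29, SE 0.18, adjusted p 2.03e-05; within-library difference -1.57, SE 0.19, adjusted p 1.90e-07). Prdm1 stood at 43.7 and 68.2 against 4.47 and 10.4 (-2.95, SE 0.36, adjusted p 2.40e-06; -2.24, SE 0.30, adjusted p 5.75e-07). Crx, at 25.5 and 21.3 against 8.94 and 12.4 (-1.14, SE 0.35, adjusted p 0.0184), and Thrb, at 23.7 and 35 against 14.3 and 9.32 (-1.29, SE 0.38, adjusted p 0.013), lost their edgeR calls with DESeq2 (adjusted p 0.179 and 0.112). Crx lost it also with doublets left out (0.221), and without control replicate 1 (0.124) or the library labelled double null replicate 1 (0.139), as well as with thinned counts (0.0638). Thrb lost it without control replicate 2 (0.176) or double null replicate 2 (0.0517).

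Of 17 tested horizontal and amacrine genes in the same cells, 3 rose (Gad2, Onecut3 and Tfap2c) and 3 fell (Pax6, Meis2 and Ptf1a), shares near those of all genes (13.5% and 15.7%). With each library left out in turn, between 1 and 5 rose and 3 fell. Ptf1a, the factor required for horizontal and amacrine fates, stood at 569 and 614 CPM against 289.6 and 266 (-1.09, SE 0.13, adjusted p 1.99e-06; within-library difference -0.71, SE 0.08, adjusted p 4.29e-08). Tfap2b, at 528 and 506 against 505 and 759, did not pass the test (adjusted p 0.186). Nxph4, a neurexophilin gene, stood at 39.2 and 38.4 against 19.7 and 17.6 (within-library difference -1.59, SE 0.28, adjusted p 1.87e-04), and its edgeR call (adjusted p 0.0219) was lost with DESeq2 (0.125) and without either control (0.0755 and 0.0775).

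The highest particular genes of the cells labelled horizontal were Lect1, Hmga2 and Cdh22. Lect1 stood at 10 and 23.9 CPM against 51 and 72.5 (2.23, SE 0.42, adjusted p 0.0455), a difference lost with thinned counts (adjusted p 0.418), with doublets left out (0.0501) and without cells under 1000 UMIs (0.0624). Hmga2 stood at 40.1 and 39.2 against 80.5 and 82.8 (1.40, SE 0.18, adjusted p 5.50e-07) and thus rose here, whereas it fell in neurogenic cells. Cdh22, a cadherin gene, stood at 10 and 16.2 against 33.1 and 44.5 (1.26, SE 0.24, adjusted p 5.34e-04), and lost the call in the joint edgeR fit (adjusted p 0.559).

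**Figure D5:**
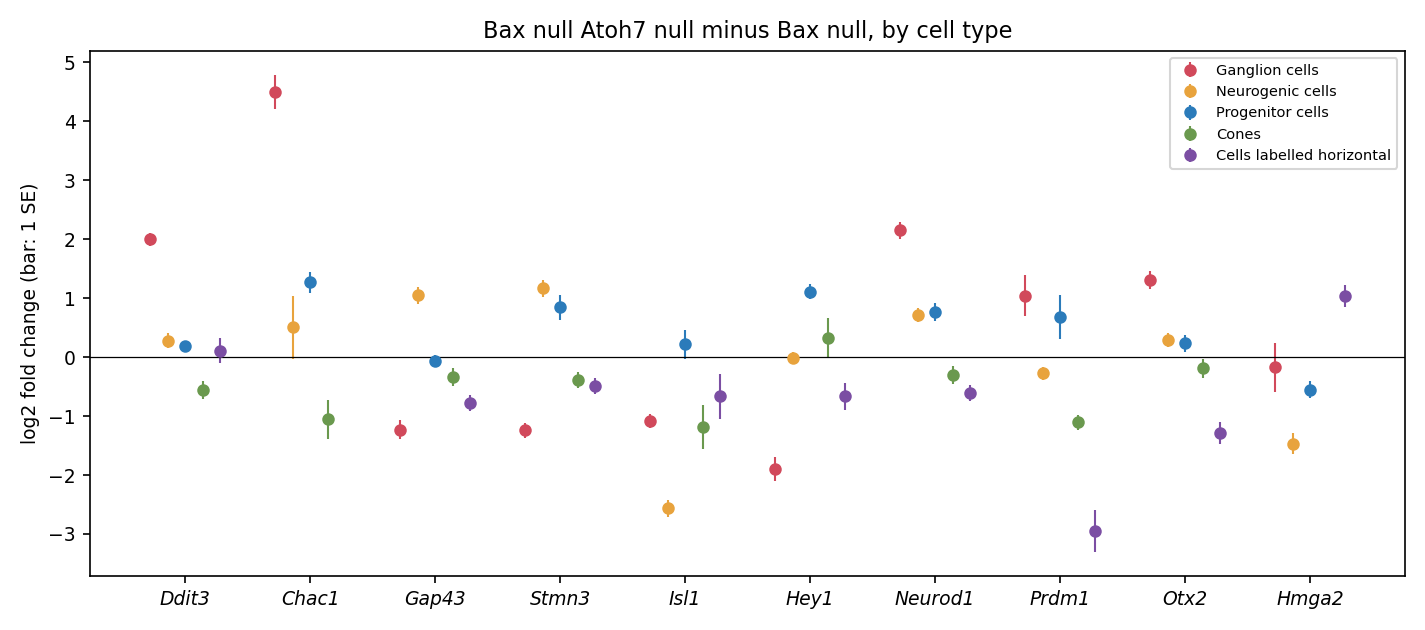
Log2 fold change (double nulls minus controls) of 10 genes in each cell type where they were tested, with bars of 1 SE. Ddit3 and Chac1 rise in ganglion cells and fall in cones, Gap43 and Stmn3 fall in ganglion cells and rise in neurogenic cells, and Prdm1 and Otx2 fall most in the cells labelled horizontal. Chac1 also rises in progenitor cells.

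The neighbourhood of the Atoh7 locus was counted because a targeted allele can carry linked changes. Of 107 genes within 5 Mb of Atoh7 on chromosome 10, 63 were tested in progenitor cells and 36 were called there (21 higher, 15 lower), near the 53.9% of all genes called in these cells, with a median of 0.08 against 0.0058 over all genes.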

How the data were processed

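Single retinal cells were counted as UMIs per gene, and the authors deposited the raw counts as a sparse matrix with a table of cells and their type labels. Per the submitters' processing notes, Cell Ranger 1.2.1 and the mm10 genome were used. How cells were filtered and typed is not given in the sources used here. The matrix held 27998 genes, of which 98.7% had a position in GENCODE's mouse annotation (GRCm38). Cells of 2 further libraries in the cell table, which belong to no sample of the series, were not used.

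Counts were summed per library and cell type and tested with edgeR 4.0.16 (quasi-likelihood F test, TMM, low counts filtered with filterByExpr, all 6 libraries in one fit per type, Benjamini-Hochberg adjustment within the type). Within-library differences were tested with limma 3.58.1 on log2(CPM + 4) with the same adjustment. R was 4.3.3. Both tests were checked on simulated counts. A fold against a group at 0 UMIs was taken against 3 UMIs in the shallower library, and such floors and intervals cover counting error only.

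The comparison and the gene lists were chosen with earlier results of these data known. Named were list members, up to 3 genes per direction with the largest difference among those particular to a type, and up to 8 per direction among shared genes, the last 2 with at least 20 CPM and groups that do not overlap. Some list members are counted but not reported by name here. Phgdh, Mthfd2, Cebpb and Pgam1 were chosen after their values were seen. Alternatives were RLE scaling, DESeq2 1.42.0, no filter, the 4 compared libraries alone, a replicate block, leaving out each library, thinned counts, a minimum of 1000 UMIs per cell, leaving out the 8% of cells with the highest Scrublet score (scanpy 1.11.5), pseudocounts of 1 and 10 CPM, another reference type, and a joint edgeR fit. Leaving out the cells with shared barcodes was chosen after seeing the data.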

Additional observations from a re-analysis of the deposited data

Results flagged for a closer look

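The genes below changed in one cell type by more or in another direction than in the other types of the same libraries, by limma's test of that difference, whose sizes are given on the log2 scale. In ganglion cells these were Atf3 (3.54), Cacng3, a subunit gene of AMPA receptor complexes (2.70), and Chac1 (2.55), and, lower, Irx3 (-3.34), Lmo2 (-3.31) and Tac1 (-2.96). In neurogenic cells they were Gap43 (1.58) and Ehd4 (1.41), and, lower, Cp (-1.56), Isl1 (-1.46) and Hmga2 (-1.42). In progenitor cells Hey1 stood out (1.45). In cones they were Kcnab1 (1.67), Specc1 (1.38) and Tbc1d10b (1.35), and, lower, Gsg1 (-4.95), Chac1 (-2.03) and Pcdh17 (-1.88). For Gsg1 the counts outside cones were too low for a fall to be seen. In the cells labelled horizontal they were Lect1 (2.23), Hmga2 (1.40) and Cdh22 (1.26), and, lower, Prdm1 (-2.24), Nxph4 (-1.59) and Otx2 (-1.57).

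The double null libraries shared 2596 cell barcodes, above the 126 to 223 shared by any other pair of libraries. The cells that carry them were kept in the reported comparison, where they made up 20.6% of the replicate 1 ganglion cells. The reported tests treat both libraries as separate replicates. Without the replicate 1 cells of these barcodes, 5332 of the 5580 genes called in ganglion cells were called in the same direction, and 235 of the 244 particular genes remained.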

How the results depend on the processing

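Of 2488 alternative fold changes of the named genes, 2447 kept their direction and their side of the threshold, as did 703 of 720 within-library differences. The 8 fold changes that changed sign were called neither in the reported fit nor in that alternative. They were Pou4f1 and Nefm in ganglion cells with doublets left out (0.0045 and 0.038) and Crx in cones with thinned counts (0.017), and the rest came from leaving out a library. Over the libraries left out in turn, the fold change ranged from -0.25 to 0.033 for Pou4f1, from -0.081 to 0.031 for Nefm, from -0.11 to 0.025 for Crx in cones and from -0.43 to 0.022 for Otx2 in cones.

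With DESeq2, 1212 genes were called in cones, 1209 in the cells labelled horizontal and 788 in all 5 types, and 15 and 18 were particular to cones and to the cells labelled horizontal. With no filter, 314 genes differed in progenitor cells and 4 were particular. With thinned counts, 36 genes were particular to neurogenic cells and 21 to the cells labelled horizontal, and 252 and 127 differed in cones and in the cells labelled horizontal. With doublets left out, 791 differed in neurogenic cells. A pseudocount of 1 CPM gave 672 differing genes in progenitor cells, with 75 particular to neurogenic and 25 to progenitor cells. A pseudocount of 10 CPM left 124, 11, 1, 18 and 12 particular genes in ganglion, neurogenic and progenitor cells, cones and the cells labelled horizontal. With a single reference type, 7 and 3 genes were particular to neurogenic and progenitor cells, and 340 differed in the cells labelled horizontal. The joint edgeR fit gave 82 and 43 for neurogenic and progenitor cells. The causes were not tested.

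Leaving out each library in turn, with the lone library assumed to vary like the other groups, gave 3663 to 5401 called genes in neurogenic cells, 1583 to 2598 in cones, 1599 to 2490 in the cells labelled horizontal and 858 to 1461 in all 5 types. Differing genes ranged from 961 to 2052 in ganglion cells, 582 to 1296 in neurogenic cells, 318 to 857 in progenitor cells and 131 to 214 in the cells labelled horizontal. Particular genes ranged from 18 to 44 in neurogenic cells and from 3 to 15 in progenitor cells. With a replicate block, 5673 genes were called and 246 were particular in ganglion cells. Same-numbered control and double null libraries did not deviate together (correlations from -0.132 to 0.0138), so the numbers were not taken to pair them. DESeq2 was not run for the differences, nor the unfiltered fit for the count over all 5 types.
Genes counted with few UMIs in the double nulls, such as Shh in ganglion cells, could not be tested at this depth.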

Other observations

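Genes of hypoxia and sugar metabolism moved in progenitor cells, where 13 of 22 rose and 5 fell in edgeR's test, with a median of 0.48 (9 fell without the library labelled double null replicate 1). Of all genes, 26.8% were called higher and 27.1% lower in these cells. Pfkl, which encodes a subunit of the phosphofructokinase of glycolysis, stood at 53 and 47.5 CPM in the controls against 118 and 101 in the double nulls, a fold change of 1.12 (SE 0.10, adjusted p 2.66e-05). Hk2, a hexokinase, went the other way, with 63 and 67 against 35.2 and 15.1 CPM (-1.34, SE 0.29, adjusted p 0.00402). Its double null libraries lay further apart than its control libraries. Neither gene had a called within-library difference in progenitor cells. Of 61 tested histone genes in progenitor cells, 31 rose and 11 fell, beside the same shares of all genes, with a median of 0.73 (7 fell without control replicate 1).

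Markers of cells outside the retina also differed between the libraries. Sums over these marker lists are given without TMM scaling. Summed over 6 pigment cell genes, progenitor cells held 9.8 and 11.8 CPM in the controls against 5.65 and 4.06 in the double nulls. Of 5 pigment genes tested in these cells, 4 fell. All 4 tested lens genes fell there as well, with a median of -3.56 (2 of 3 without control replicate 2), and of 5 tested microglial genes 1 fell. Summed over 6 endothelial genes, progenitor cells held 56.2 and 58.5 CPM in the controls against 92.5 and 86.7 in the double nulls. With TMM scaling the members went different ways. Kdr stood at 51.6 and 55.1 CPM against 67.1 and 58.6, and Egfl7 at 19.8 and 20.9 against 12.2 and 10.2. Of 4 tested endothelial genes 1 rose and 1 fell, so no direction is given for this list. Ddx3y, a gene of the Y chromosome, stood in progenitor cells at 9.1 and 9.36 CPM in the controls against 17.6 and 20.2 in the double nulls (1.03, SE 0.30, adjusted p 0.0162), and the labels used here give no sex of the embryos. The part of these differences in the other results was not tested.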
